A study of Rattus norvegicus with 18 samples.

Results

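A set of 74 probe sets had a strong signal in laminin non-binding germ cells of the rat testis and at least 5 times less in each of 8 other testis cell populations. They are 74 of 31042 non-control probe sets, 24 of type A and 50 of type B. Their 58 probe sets with 1 annotated gene name 56 genes, 2 further probe sets match several genes and 14 match none. The values that chose them were a scaled signal of 500 or more in the non-binding library and a fold of 5 or more over each other library of the same array type, with signals raised to a floor of 50. In all, 84 probe sets (0.271%) passed these values, and 10 of them, from 9 genes that include Ldhc, Crisp2, Adam2 and Odf2, were left out by name. Because the signals in this contrast chose the members, they are given as a description without a test.

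The study measured 9 populations from 22-day-old rats on 18 arrays, 1 of each of 2 one-colour oligonucleotide array types per population, with no replicate of any population. The 7 germ cell populations were cells that did not bind to laminin, cells that bound to laminin, those on STO feeders at day 1, 5, 10 or 20, and those on MSC1 feeders at day 20. The 2 somatic populations were testis interstitial cells and tubular somatic cells. Laminin is a protein of basement membranes, STO cells are mouse fibroblasts from embryos, and MSC1 cells derive from mouse Sertoli cells. The labels call the binding and non-binding cells cultured without giving a time, and do not give the rat strain or whether animals were pooled. The authors had scaled each array to an average signal of 250, so a signal is relative to its own array, and signals of different probe sets are not on one scale.

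In the rat the first wave of spermatogenesis has brought germ cells into meiosis by this age, while elongated spermatids and sperm come later. Male germ cells are known to switch on, during meiotic prophase, many genes whose proteins are used only later, when the round cell builds a flagellum and an acrosome. The flagellum has an axoneme of microtubules, dynein motor arms, radial spokes and a central pair, and the acrosome is a secretory cap on the sperm head that acts at fertilization.

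Of 10 spermatocyte markers on the arrays 7 had a signal of 250 or more in non-binding cells. The summed signal of the 10 was 15848, against 17927 on STO day 20 and 670 to 5414 in the 7 other libraries. Such sums add probe sets that are not on one scale. The Hspa2 probe set in this sum had 264 in non-binding cells and 49.6 on STO day 20, while another had 5333 and 1084. Which of these 2 libraries had the higher sum therefore depended on the probe set used. None of 10 haploid spermatid markers, among them the protamine gene Prm1 and the fibrous sheath gene Akap4, reached 250 in any library, and their summed signal was 154 in non-binding cells and 120 to 298 in the 8 others. The haploid spermatid gene list, of 16 genes on the arrays, did reach 250, in Dnajb3 with 523 in non-binding cells and in Fscn3 with 303 on MSC1. Of 15 markers of undifferentiated spermatogonia 1 reached 250 in non-binding cells, against 7 in laminin-binding cells. It was Epcam, at 2617 in non-binding cells and 34.3 to 2153 in the others. Of 5 markers of differentiating spermatogonia 1 did, Dmrtb1, at 1346 and 80.9 to 708 in the others. Of the 13 Sertoli, 9 Leydig and 9 macrophage markers none reached 250 in non-binding cells, and of 13 peritubular and fibroblast markers only Fn1 did, at 416. The 3'/5' ratio of Gapdh, a measure of how complete the amplified RNA is, was 5.63 (type A) and 5.33 (type B) in non-binding cells, against 7.07 to 29.7 and 8.83 to 27.1 in the others. That of actin was also lowest in non-binding cells on both types, at 8.91 and 11.6. The part of RNA quality in the members' signals was not tested. In bulk RNA, fewer cells of a type and less RNA per cell cannot be told apart.

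The members' signals in non-binding cells lay between 504 and 8284 with a median of 1976. Their medians were 122 in laminin-binding cells, 102, 86.6, 73.9 and 83.2 on STO days 1, 5, 10 and 20, 93.0 on MSC1, 123 in interstitial cells and 62.3 in tubular somatic cells. All probe sets together had medians of 89.4 in non-binding cells and 91.4 to 125 in the others. The fold over the highest other library ran from 5.11 to 71.1 with a median of 8.67, or 3.12 on the log2 scale. It was 10 or more for 31 members and 20 or more for 10. Of the members 4 were under the floor in all 8 other libraries, and 25 were above it in all 8. The highest of the other libraries was the laminin-binding one for 20 members, STO day 20 for 17, the interstitial one for 15, STO day 1 for 6, and STO day 5, MSC1 and the tubular one for 4 each. Thus no single other library held the next signal of the whole set. On the 100 probe sets that both array types carry, the log2 folds of the non-binding library over the others differed between types with a standard deviation of 0.21 to 0.29 per type, so that 2 standard deviations came to 1.33-fold to 1.49-fold. That spread covers the arrays and not animals or cultures. Whether it also covers amplification is not known here.

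**Figure D1:**
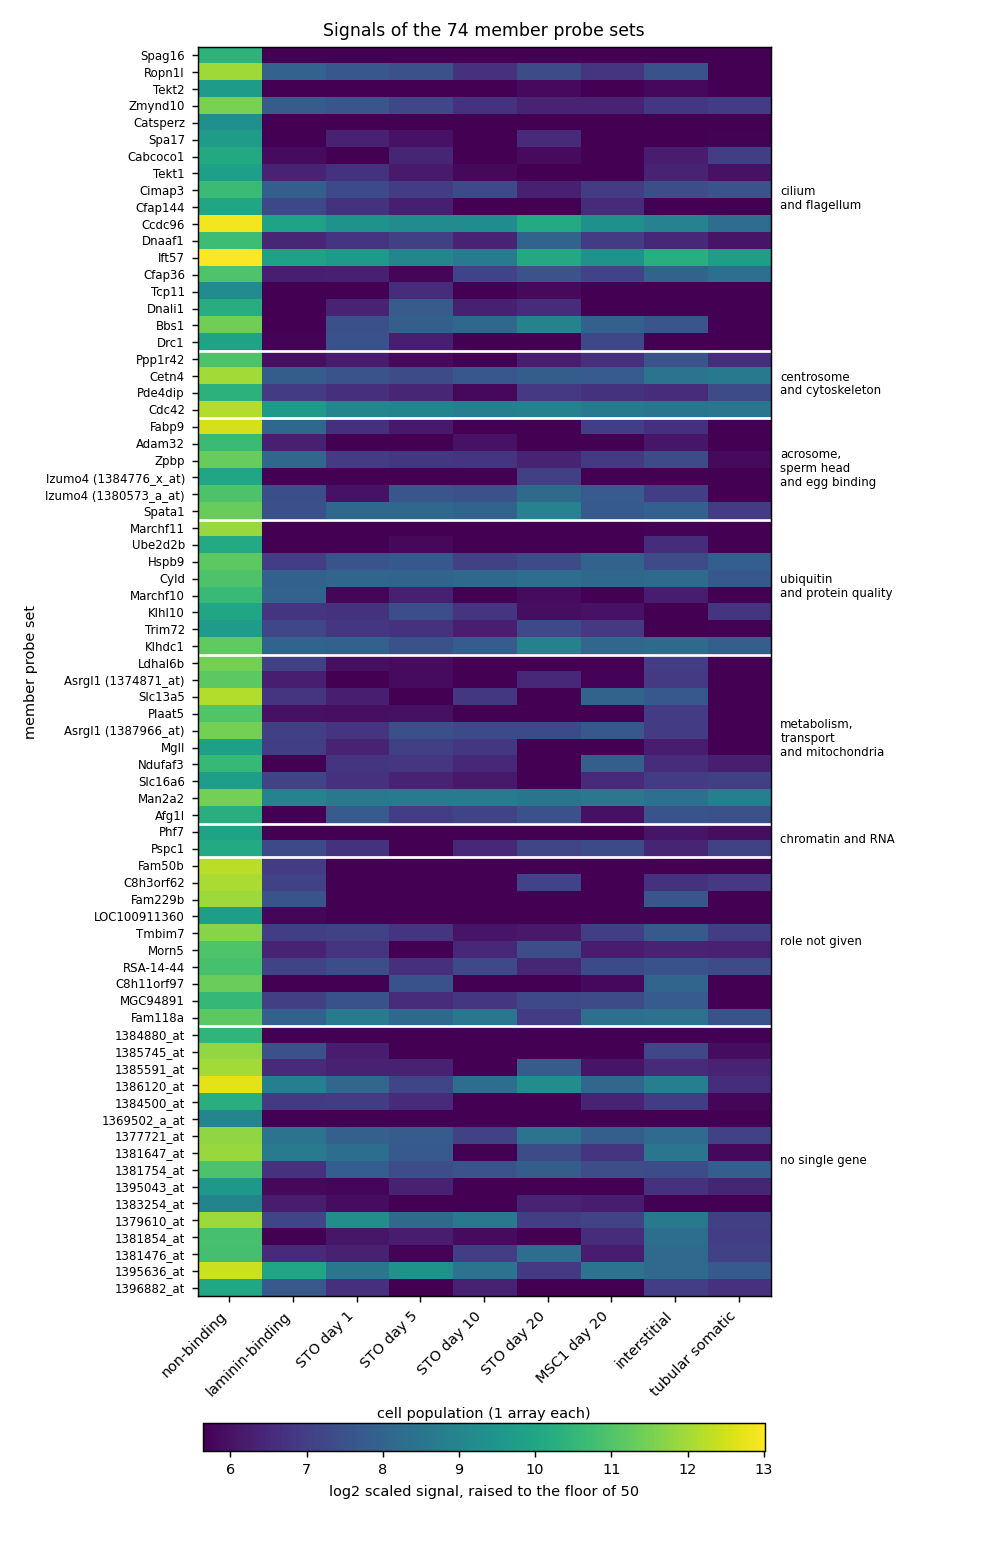
Signals of the 74 members (rows, grouped by role) in the 9 populations (columns, 1 array each), as log2 of the scaled signal raised to the floor of 50. The first column, non-binding cells, is brighter than the 8 others in every row by at least 5.11-fold.

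The same values applied to each library in turn, without leaving out genes, picked 84 probe sets for non-binding cells, 183 for interstitial cells and 111 for tubular somatic cells. They picked 4 for laminin-binding cells, 2 each for STO day 20 and MSC1, and none for STO days 1, 5 and 10. Type A gave 0.151% of its probe sets as members and type B 0.329%. Just inside the fold limit were Klhdc1, a relative of substrate receptors of ubiquitin ligases, at 5.11-fold and Drc1 at 5.18-fold, and just outside were Rsph10b at 4.97-fold, Sord at 4.93-fold and Hspa2 at 4.92-fold. Just inside the signal limit were the probe sets 1383254_at at 504 and 1369502_a_at at 507, with no single gene, and Tcp11 at 592, and just outside were Odf4 at 462, Pkib at 432 and Tekt4 at 416.

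The largest group of members with a role had to do with the cilium and flagellum, with 18 probe sets of 18 genes. Their signals in non-binding cells were 592 to 8284 and their folds 5.18 to 27.1, with a median fold of 6.8. They covered filaments, motors, spokes and regulators of the axoneme as well as the transport that builds it. Spag16, a protein of the central pair, had a signal of 1354 in non-binding cells, against 11 in laminin-binding cells, 8.5, 10.3, 8.8 and 8.0 on STO days 1, 5, 10 and 20, 25 on MSC1, 10.9 in interstitial cells and 10.0 in tubular somatic cells. By this probe set it was thus under the floor in every other library, a fold of at least 27.1. Another Spag16 probe set, not a member, had 94.7 in non-binding cells and 7.6 to 71.9 in the others, with tubular somatic cells next. Tekt1 and Tekt2 code for tektins, filament proteins inside the axoneme's microtubules. Tekt2 had a signal of 833 in non-binding cells, against 7.0 in laminin-binding cells, 3.8, 6.5, 14.8 and 56.4 on STO days 1, 5, 10 and 20, 28.3 on MSC1, 55.8 in interstitial and 14.1 in tubular cells, and it was 14.8-fold above the highest of these. For Tekt1 the signal was 893 in non-binding cells, against 82.3 in laminin-binding cells, 105, 73.0, 55.5 and 28.7 on STO days 1, 5, 10 and 20, 10.8 on MSC1, 81.7 in interstitial and 63.6 in tubular cells. All 8 other libraries were far below for both tektins, with different libraries next.

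Dnali1, a light intermediate chain of the inner dynein arms, had a signal of 1206 in non-binding cells and 26.9 to 218 in the others. Dnaaf1 and Zmynd10, both needed to assemble dynein arms in the cytoplasm, had signals of 1708 and 2982 in non-binding cells, 6.63-fold and 13.7-fold above the highest other library. Drc1, of the nexin link between microtubule pairs, had 941 in non-binding cells, against 182 on STO day 1 and 151 on MSC1, the only others above 100. Ropn1l, found on radial spokes and in the fibrous sheath, had 3973 in non-binding cells, against 251 in laminin-binding cells, 201, 177, 103 and 162 on STO days 1, 5, 10 and 20, 110 on MSC1, 183 in interstitial and 42.6 in tubular cells. The signals of the 8 other libraries were thus 15.8-fold or more below that of the non-binding cells, and the interstitial one lay among those of the germ cell libraries. Catsperz, a subunit of the sperm calcium channel, was under the floor in all 8 other libraries and had 651 in non-binding cells, at least 13.0-fold.

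Ift57, of the transport complex that carries building material into cilia, and Ccdc96, known from axonemes of ciliates, stood out among members for their signals outside non-binding cells. Ift57 had a signal of 8284 in non-binding cells, against 937 in laminin-binding cells, 778, 508, 402 and 1097 on STO days 1, 5, 10 and 20, 675 on MSC1, 1264 in interstitial and 883 in tubular cells. Ccdc96 had 7564 in non-binding cells, against 960 in laminin-binding cells, 687, 594, 604 and 1134 on STO days 1, 5, 10 and 20, 656 on MSC1, 478 in interstitial and 309 in tubular cells. Both were present at several times the floor in every library, so their place among the members rests on a 6.55-fold and a 6.67-fold difference and not on a lack of signal elsewhere. Bbs1, of the BBSome that sorts membrane cargo of cilia, had 2732 in non-binding cells, against 20.2 in laminin-binding cells, 175, 233, 280 and 494 on STO days 1, 5, 10 and 20, 238 on MSC1, 193 in interstitial and 43.1 in tubular cells. The other genes of the group, with folds of 6.23 to 8.78, were Cfap36, Cfap144, Cimap3, Cabcoco1, Spa17 and Tcp11.

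Of a wider list of axoneme and flagellum genes, 64 were on the arrays, 40 had a signal of 250 or more in non-binding cells and 36 were highest there at that level. Over all 13807 genes, 1394 (10.1%) were highest in non-binding cells at 250 or more. Members made up 9 of the 64 and 0.406% of all genes. Genes of the list that were highest in non-binding cells and were not members included Ift88 at 3350, 1.16-fold above STO day 20, Cfap45 at 2076, 4.91-fold above the next library, and Tekt3 at 735, 3.82-fold above it.

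Promoters of member genes were searched for short motifs of 2 factor families known from the mouse testis. MYBL1, also called A-MYB, is a MYB factor that acts in spermatocytes, and RFX2 is an X-box factor that acts on ciliary genes in germ cells. RefSeq promoters of the GRCr8 assembly, from 250 bases before to 50 after the annotated start, were matched for 45 of the 56 genes. The MYB motif was C or T, then AAC, then GG or TG, and the X-box core was GTTGCC, both read on either strand. Shown are 80 bases before to 50 after the start of 6 members, 5 of the cilium group and the uncharacterized C8h3orf62, since they show how these matches sit near the start. Capitals mark the MYB motif and the X-box core.
Drc1, chr6:31779207-31779336, minus strand: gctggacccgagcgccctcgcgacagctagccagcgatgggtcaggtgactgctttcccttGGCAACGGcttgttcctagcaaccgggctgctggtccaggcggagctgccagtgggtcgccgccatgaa
Cfap144, chr10:44019232-44019361, minus strand: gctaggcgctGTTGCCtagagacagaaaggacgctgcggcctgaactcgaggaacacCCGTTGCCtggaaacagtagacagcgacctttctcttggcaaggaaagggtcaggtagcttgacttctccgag
Tekt1, chr10:57479072-57479201, minus strand: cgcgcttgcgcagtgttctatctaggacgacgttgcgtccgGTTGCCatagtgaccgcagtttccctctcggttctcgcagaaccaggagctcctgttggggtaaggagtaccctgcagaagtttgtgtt
Tekt2, chr5:143907675-143907804, minus strand: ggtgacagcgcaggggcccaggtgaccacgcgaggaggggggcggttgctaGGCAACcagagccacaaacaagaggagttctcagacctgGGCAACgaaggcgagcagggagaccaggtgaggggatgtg
Bbs1, chr1:211633419-211633548, minus strand: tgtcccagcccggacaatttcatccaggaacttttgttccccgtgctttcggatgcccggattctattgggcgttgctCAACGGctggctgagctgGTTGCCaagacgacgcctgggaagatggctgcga
C8h3orf62, chr8:117958503-117958632, plus strand: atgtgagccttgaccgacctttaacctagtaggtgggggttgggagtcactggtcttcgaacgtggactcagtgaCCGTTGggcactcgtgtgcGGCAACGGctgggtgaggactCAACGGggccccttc
In Drc1, C8h3orf62 and Cfap144 a MYB motif and an X-box core share bases, which gives capital runs of 8. Within the bases shown, Tekt1 and Tekt2 hold the X-box core alone, and Bbs1 holds both apart from each other. Tekt2 has a MYB motif further out, 152 bases before the start.

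A MYB motif was found in 29 of 45 member promoters (64.4%) and in 25.2% of the promoters of 11361 genes on the arrays. The share was 57.9% of 19 promoters of genes shared with STO day 20, 38.6% of 158 for genes 2 to 5 times above the highest other library, and 27.7% of 2620 for genes with a signal of 500 or more in non-binding cells but under 2 times the next. By the same rule, it was 31.5% of 89 for interstitial and 24.1% of 58 for tubular somatic cells. Within 100 bases before the start or after it, 40.0% of member promoters and 13.1% of promoters of all genes on the arrays held the motif. Further before the start, 31.1% of member promoters and 14.1% of all held it, so the higher share was not confined to the start. An X-box core was found in 13 of 45 member promoters (28.9%) and 12.3% of the 11361. The share was 23.4% of the 158 for genes 2 to 5 times above the highest other library and 21.1% of the 19 for genes shared with STO day 20. It was 12.9% of the 2620 for genes under 2 times the next. By the same rule, it was 16.9% of the 89 for interstitial and 15.5% of the 58 for tubular somatic cells. The core lay in 9 of 14 promoters of the cilium and flagellum members (64.3%) and in 4 of 31 of the other members (12.9%). Those 9 were Bbs1, Cabcoco1, Cfap144, Cfap36, Drc1, Ropn1l, Tcp11, Tekt1 and Tekt2. Since the last bases of one motif can be the first of the other, 7 member promoters (15.6%) held an overlapping pair, against 2.25% of the 11361, and 25 (55.6%) held a MYB motif clear of any X-box core, against 23.5%. The cyclic AMP response element TGACGTCA was in 1 member promoter, that of Cdc42, or 2.22% against 2.85%. The TATA box TATAAA, read on the coding strand, was in 2 promoters, those of Ldhal6b and RSA-14-44, or 4.44% against 5.78%. The median GC content was 57.0% for members and 60.0% for genes on the arrays. A match describes letters and not binding of a factor. Rfx2 itself had a signal of 590 in non-binding cells and 113 to 469 in the others. It was 1.26-fold above MSC1, where 2 standard deviations between array types came to 1.44-fold. Of its relatives, Rfx4 had 732 in non-binding cells and 68.9 to 371 in the others, and Rfx3 had 75.2 and 4.2 to 69.8. For Mybl1 no probe set with 1 annotated gene was found, so its level is not given.

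**Figure D2:**
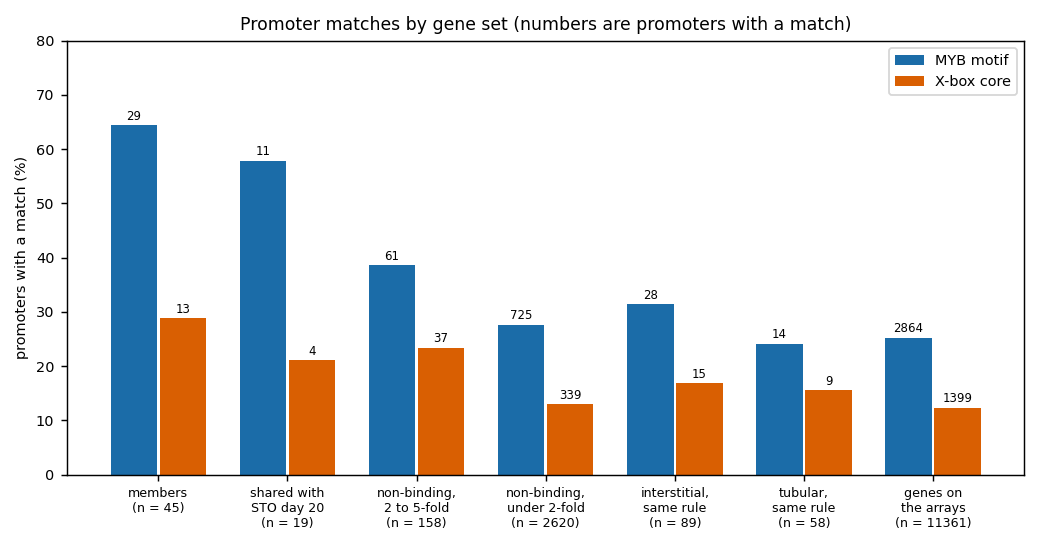
Share of RefSeq promoters (y axis, percent) with a MYB motif or an X-box core, for members and for 6 comparison sets, with the number of matching promoters over each bar. The members' shares are 64.4% for the MYB motif and 28.9% for the X-box core, against 25.2% and 12.3% of all genes on the arrays.

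Acrosome and sperm head genes gave 6 member probe sets of 5 genes, with folds of 5.28 to 21.4. Fabp9, the lipid-binding protein of the rat sperm perforatorium, had a signal of 5926 in non-binding cells, against 278 in laminin-binding cells, 99.3, 70.7, 27.2 and 2.9 on STO days 1, 5, 10 and 20, 126 on MSC1, 100 in interstitial and 24.1 in tubular cells. On STO it was under the floor on days 10 and 20, and on day 20 it was at least 5.55-fold lower than in laminin-binding cells. Adam32, a membrane protein of the ADAM family in male germ cells, had 1620 in non-binding cells and 28.1 to 78.7 in the others. Zpbp, an acrosomal protein that binds the egg coat, had 2526 in non-binding cells, against 273 in laminin-binding cells and 56.9 to 164 in the 7 remaining libraries. Spata1 had 2521 in non-binding cells and 122 to 477 in the others. Izumo4, a relative of the sperm-egg fusion protein IZUMO1, was measured by 2 member probe sets, at 1969 and 1010 in non-binding cells, and both were next highest on STO day 20, at 290 and 131. Of the acrosome and egg binding list 26 genes were on the arrays, 7 were highest in non-binding cells at 250 or more and 4 were members, Adam32, Izumo4, Spata1 and Zpbp.

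The member with the largest fold, Marchf11, belongs to a group of 8 genes of ubiquitin transfer and protein quality. It codes for a membrane-bound ubiquitin ligase known from rat spermatids and lies at chr2:78628793-78730164 on GRCr8. Its signal was 3771 in non-binding cells, against 41.5 in laminin-binding cells, 27.6, 36.4, 22.3 and 3.5 on STO days 1, 5, 10 and 20, 5.3 on MSC1, 53.0 in interstitial and 41.2 in tubular cells. Only the interstitial signal exceeded the floor, which gave 71.1-fold. Marchf10, a ligase of the same family that was found on spermatid microtubules in the rat, had 1565 in non-binding cells, against 250 in laminin-binding cells, 54.2, 78.9, 21.1 and 58.1 on STO days 1, 5, 10 and 20, 22.0 on MSC1, 74.3 in interstitial and 15.6 in tubular cells. Unlike Marchf11, it kept a signal in the laminin-binding library. Klhl10, a substrate adaptor of CUL3 ligases in germ cells, had 1038 in non-binding cells and 41.5 to 170 in the others. The deubiquitinase gene Cyld had 1984 in non-binding cells and a narrow range of 205 to 313 in the others. Trim72 had 842 in non-binding cells and 37.5 to 159 in the others. Of 34 genes of the ubiquitin, proteasome and protease list on the arrays, 12 were highest in non-binding cells at 250 or more and 3 were members, Klhl10, Marchf10 and Marchf11.

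Several members have a widely expressed relative that was also measured. These pairs were chosen after the members' values were seen. Fam50b, an autosomal copy of the X-linked Fam50a, had 4835 in non-binding cells, against 121 in laminin-binding cells, 28.8, 25.4, 6.3 and 5.6 on STO days 1, 5, 10 and 20, 4.3 on MSC1, 27.8 in interstitial and 8.3 in tubular cells. Fam50a had 1361 in non-binding cells and 1697 to 2879 in the 8 others, so its signal was lowest where that of Fam50b was highest. Its gap to interstitial cells, the next lowest, was 0.32 log2 units. That is within 2 standard deviations between array types, at 0.21 log2 units each. Ube2d2b, a ubiquitin-conjugating enzyme known from rat testis, had 1141 in non-binding cells and 7.0 to 97.3 in the others, while its relative Ube2d2 had 2748 in non-binding cells and 1065 to 2549 in the others. Ldhal6b, a lactate dehydrogenase-like gene, had 2873 in non-binding cells, against 137 in laminin-binding cells, 62.2, 58.4, 26.9 and 10.3 on STO days 1, 5, 10 and 20, 5.2 on MSC1, 128 in interstitial and 12.4 in tubular cells. Ldha had 1913 in non-binding cells, against 197 to 720 in the 6 other germ cell libraries and 2966 and 4248 in interstitial and tubular cells. The centrin gene Cetn4 had 4073 in non-binding cells and 166 to 391 in the others, while Cetn2 had 350 in non-binding cells and 477 to 1062 in the others. The small heat shock protein gene Hspb9 had 2266 in non-binding cells and 127 to 251 in the others, while Hspb1 had 62.7 in non-binding cells and 25.2 to 1067 in the others. Probe sets of close copies can share target sequence, so a signal of Ube2d2b or Fam50b may include RNA of its relative, and how much was not tested. Of 24 germ line isoforms from a list of known pairs, 10 were highest in non-binding cells at 250 or more, against 10.1% of all genes on the arrays, and none was a member, where 0.406% of all genes are.

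**Figure D3:**
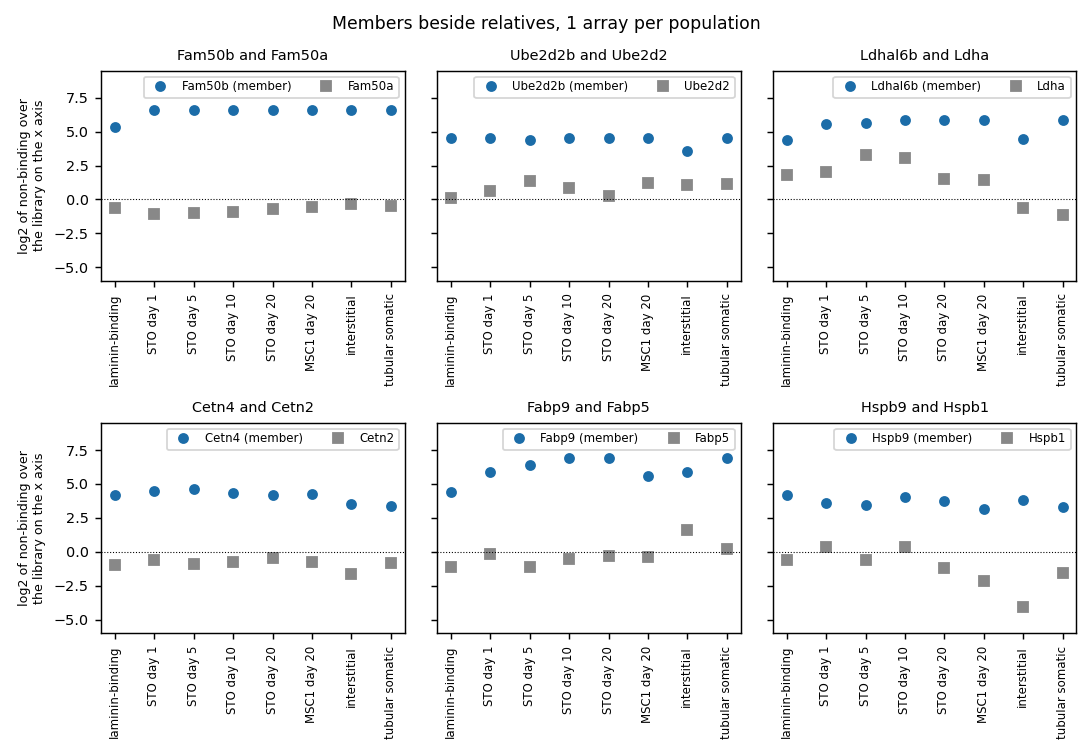
Log2 of the signal in non-binding cells over that in each of the 8 other libraries (x axis), with signals raised to 50, for 6 members (circles) and a relative of each (squares). Circles lie above 3.17 in every library, squares of Fam50a and Cetn2 lie below 0 in all 8, and those of the other relatives lie on both sides of 0 or, for Ube2d2, between 0.11 and 1.37.

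Genes of metabolism, transport and mitochondria gave 10 member probe sets of 9 genes. Asrgl1, an asparaginase-like enzyme known as a sperm autoantigen in the rat, was a member by 2 probe sets. The first had a signal of 2278 in non-binding cells and 16.1 to 120 in the others, and the second 2842 in non-binding cells and 50.0 to 201 in the others. Another Asrgl1 probe set, not a member, had 106.5 in non-binding cells and 105.2 to 178.7 in the others. Slc13a5, the sodium-coupled citrate transporter, had 4562 in non-binding cells, against 107 in laminin-binding cells, 77.1, 21.2, 114 and 27.4 on STO days 1, 5, 10 and 20, 256 on MSC1, 203 in interstitial and 46.0 in tubular cells. Plaat5, a phospholipid acyltransferase, had 2056 in non-binding cells and 2.9 to 122 in the others. Man2a2, a mannosidase that trims N-glycans, had 2851 in non-binding cells and 325 to 491 in the others. Mgll, which splits monoglycerides, had 899 in non-binding cells and 12.8 to 131 in the others, and the transporter gene Slc16a6 had 873 in non-binding cells and 39.0 to 142 in the others. Ndufaf3, an assembly factor of respiratory complex I, had 1530 in non-binding cells and 13.3 to 235 in the others. Of 27 genes of the male germ line energy list on the arrays, 7 were highest in non-binding cells at 250 or more, and only Ldhal6b was a member.

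In the chromatin and RNA group, Phf7, a reader of histone H3 that acts on histones in spermatids, had 960 in non-binding cells, against 8.9 in laminin-binding cells, 40.7, 44.4, 35.8 and 23.4 on STO days 1, 5, 10 and 20, 35.5 on MSC1, 66.3 in interstitial and 60.9 in tubular cells. The germ cell libraries other than the non-binding one were all under the floor for it. Pspc1, of nuclear paraspeckles, had 1135 in non-binding cells and 13.1 to 158 in the others. In the centrosome and cytoskeleton group, Ppp1r42 had 1984 in non-binding cells and 17.1 to 186 in the others, and Pde4dip, an anchor protein of centrosome and Golgi, had 1327 in non-binding cells and 55.8 to 165 in the others. Members with no role given here included C8h3orf62, at 4354 in non-binding cells and 14.8 to 141 in the others, Fam229b, at 3917 and 19.8 to 191, Tmbim7, at 3252 and 66.2 to 210, and Morn5, at 2017 and 22.0 to 166.

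Of all genes on the arrays, 0.406% are members, 37.8% had 250 or more in non-binding cells and 10.1% were highest there at 250 or more. At that share of members a count of 0 in a list of this size is no result about the list. Of 20 genes of meiotic recombination and synapsis on the arrays, 15 had 250 or more in non-binding cells, 4 were highest there, namely Spo11, Sycp3, Psmc3ip and Sun1 (named after their values were seen), and none was a member. Of 30 genes of germ line RNA binding and the piRNA pathway, 22 had 250 or more, 13 were highest there and none was a member. The chromatin and transcription list had 9 of 29 highest in non-binding cells and 1 member, Phf7. The kinase and signalling list had 13 of 53 highest there and 3 members, Hspb9, Ppp1r42 and Tcp11, and the spindle and centrosome list 10 of 41 and 1 member, Cetn4. Of 16 genes of the haploid spermatid list 1, Dnajb3, was highest in non-binding cells at 250 or more and none was a member. The lists were chosen with results of these data known, so their counts describe the set and are no independent evidence.

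For 16 member genes the arrays held further probe sets, 20 in all, which are set apart from the members because their own signals did not pass the rule. In these counts a Cdc42 probe set carried by both array types is counted on each. Their folds were limited by that choice, so they are described without a test. Of these, 12 were under 250 in every library, and 10 of the 20 were highest in non-binding cells. Among the 8 with 250 or more somewhere, 4 were highest in non-binding cells, namely those of Man2a2, Cfap36, Cfap144 and Izumo4. The further probe set of Man2a2 had 1505 in non-binding cells, against 864 in laminin-binding cells and 211 to 544 in the 7 remaining libraries, a fold of 1.74. That of Cfap36 had 772 in non-binding cells and 184 to 375 in the others, and that of Cfap144 had 419 in non-binding cells and 11.6 to 156 in the others. The other 4 came from Cdc42 and Pspc1 and did not follow the member. Cdc42, a small GTPase of the actin cytoskeleton, had a member probe set with 4564 in non-binding cells and 364 to 812 in the others, while a probe set of Cdc42 on both types had 2615 in non-binding cells and 450 to 4952 in the others on type A. The further probe set of Pspc1 had 4549 in non-binding cells and 1500 to 5167 in the others. For these 2 genes the pattern therefore belonged to 1 probe set and not to every probe set of the gene. Among the 12 under 250, those of Cyld, Dnali1, Phf7 and Spag16 and 2 of Mgll were highest in non-binding cells. Those of Slc16a6, Asrgl1, Marchf10, Bbs1 and Pde4dip and 1 of Mgll were not, so they did not follow the member either. The one of Slc16a6 had 146 in non-binding cells and 167 on MSC1. The target of each probe set within its gene was not used here.

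A neighbouring set of 26 probe sets, of 19 genes, met the same values against the 7 remaining libraries but not against STO day 20. Its median signal was 2335 in non-binding cells, against 124 in laminin-binding cells, 168, 170, 215 and 835 on STO days 1, 5, 10 and 20, 194 on MSC1, 188 in interstitial and 129 in tubular cells. On STO day 20 the members' median was 83.2. The genes included Spo11, which makes the breaks that start meiotic recombination, at 2417 in non-binding cells and 2381 on STO day 20, and Sycp2 of the synaptonemal complex, at 2495 and 2501. The cell cycle regulator Spdya had 1363 in non-binding cells and 1632 on STO day 20. Others were cilium genes such as Ift81, at 3072 and 1498, Dnah12, at 1425 and 766, and Ccdc181, at 3710 and 934. A probe set of Ift81 outside this set had 3850 and 3278, and 677.6 to 1543.5 in the 7 remaining libraries. Both sets therefore held flagellum genes. Of the meiotic recombination list, Spo11 and Sycp2 met the values of the shared set and no gene was a member. The values chose the set, so this is no result about the list. Psmc3ip of that list was in neither set, with 1360 in non-binding cells and 312 on STO day 20, 3.44-fold above its highest other library.

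**Figure D4:**
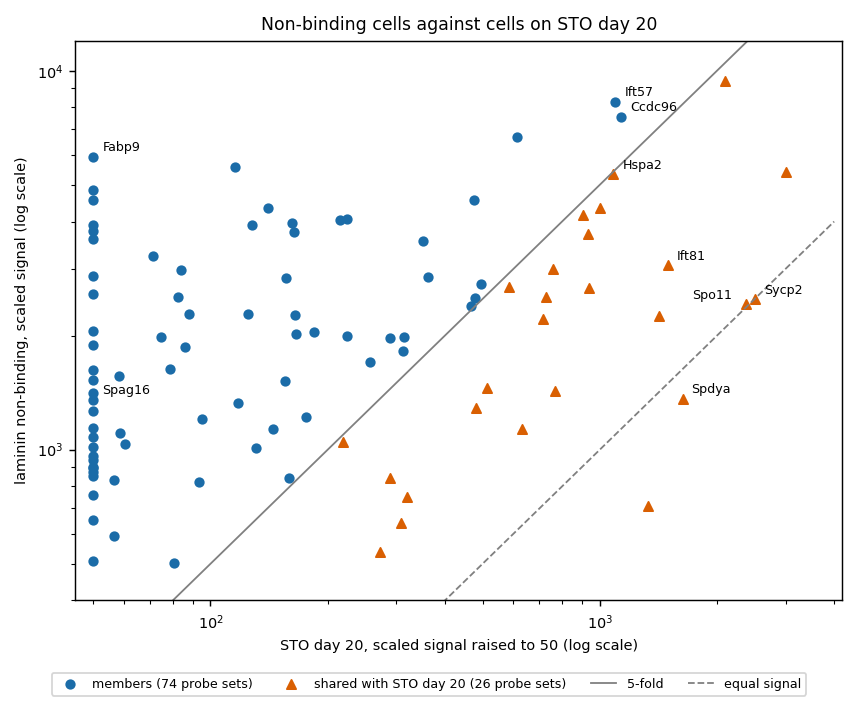
Signal in non-binding cells (y axis, log scale) against the signal on STO day 20 raised to 50 (x axis, log scale), for the 74 members (circles) and the 26 probe sets shared with STO day 20 (triangles). By the rule circles lie on or above the 5-fold line and triangles below it, and Spo11, Sycp2 and Spdya lie near the line of equal signal.

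Between libraries other than the non-binding one, a difference was called at 3-fold with 250 or more on the brighter side. The rule holds every member's signal in these libraries to at least 5-fold below that in non-binding cells, so the number of calls was limited by the choice of members: 17 of 74 members had 250 or more on STO day 20 or day 1, against 10175 of all 31042 probe sets. Between STO day 20 and day 1, 2 of 74 members were higher on day 20, against 2% of all probe sets, and 3 were lower, against 2.64%. Izumo4 had 290 on STO day 20 and 64.5 on day 1, 4.50-fold higher, and the probe set 1381476_at, with no gene, had 313 and 80.2. Fam118a had 125 on STO day 20 and 420 on day 1, and the probe sets 1379610_at and 1395636_at, with no single gene, had 128 and 630, and 116 and 372. These counts are no result about the members. Between STO day 20 and laminin-binding cells 2 members were higher on day 20 (4.37% of all), Bbs1 by at least 9.89-fold and 1381476_at, and 4 were lower (4.21%), namely Fabp9, Zpbp, Marchf10 and 1395636_at. The further Bbs1 probe set, not a member, went the other way, with 34 on STO day 20 and 102 in laminin-binding cells. On MSC1 against STO day 20, 2 members were higher (2.83%), Slc13a5 with 256 and 27.4, and 1395636_at, and 1381476_at was lower (2.34%).

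Laminin-binding cells, the other germ cell fraction, had 2 members above both somatic fractions (3.31% of all), Marchf10 and 1395636_at, and 1 below both (2.71%), Cfap36. Against STO day 1, Marchf10 was higher (1.24%), with 250 and 54.2, and 1379610_at lower (1.45%). Against tubular somatic cells alone 8 members were higher (4.79%) and 1 was lower (5.25%). The 8 were Fabp9, Ropn1l, Zpbp, Ccdc96, Marchf10 and 3 probe sets with no single gene. Cfap36 was lower, with 77.4 in laminin-binding and 326 in tubular cells. Against interstitial cells 2 members were higher (5.77%), Marchf10 and 1395636_at, and 4 lower (6.84%), Cfap36, C8h11orf97 and 2 with no single gene. These counts too were limited by the choice of members. Without a limit on signal or fold, 48 members were higher and 15 lower in laminin-binding than in tubular somatic cells, with a median log2 difference of 0.17 (0 over all probe sets), and 33 were higher and 34 lower than in interstitial cells, with a median of 0.

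Over the 4 STO arrays a trend with log2 culture day was fitted with limma's linear model, with 2 residual degrees of freedom, on 16066 probe sets with a mean signal of 100 or more, 33 of them members. No probe set passed a Benjamini-Hochberg adjusted p of 0.05 in either direction (0% of all). At an unadjusted p under 0.05 there were 2 rising members, Izumo4 and Bbs1, and 1 falling, 1379610_at, against 3.68% and 5.65% of all. Izumo4 gained 0.48 log2 units per unit of log2 day (SE 0.13, limma adjusted p = 0.426). With day on a linear scale limma called 588 rising (3.66%) and 837 falling (5.21%), and among the 33 members 1379610_at alone was called, with a slope of -0.11 log2 units per day (SE 0.028, limma adjusted p = 0.0388).

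Member genes lay on 17 chromosomes of GRCr8, with 8 of 56 on chromosome 1, 7 each on 2 and 10, and 6 on 8. No member gene was on the X chromosome, which allows a share of up to 5.36%, and 3.04% of all genes on the arrays with a position, and 2.22% of those with 500 or more in non-binding cells, were on the X. A lower share than that of all genes was thus not detectable with 56 genes. In 2 cases members lay within 200 kb of each other. C8h3orf62, at chr8:117958583-117963137, and Ndufaf3, at chr8:118139891-118141723, were 176754 bases apart, and Slc13a5, at chr10:57364806-57389500, and Tekt1, at chr10:57450712-57479121, were 61212 bases apart.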

How the data were processed

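Per the labels, 50 ng of total RNA per array went through 2 rounds of amplification, and the authors scaled each deposited intensity array to an average of 250. The array software is not given in the sources used here. Type A held 15923 and type B 15333 probe sets. Control probe sets (57 per type) were left out, and 100 others shared by the types count as type A. Genes came from the platform annotation, with symbols and positions from RefSeq GRCr8. Signals were raised to 50 before folds. Marker genes used the probe set with the highest mean log2 signal, on type A where present. A list gene was counted if any of its probe sets met the values, so genes with several probe sets had more ways to be counted. The number of arrays limits precision, with 1 per population and type. The trend used limma 3.58.1 in R 4.3.3, and both the fit and the rule were tested on simulated data; other steps used Python 3.11.15 with pandas 2.3.3. Members, lists, pairs and tests were chosen with earlier results of these data known. Genes were named if among the 20 largest folds or 10 highest signals, in a list or pair, at a threshold, with another probe set, called in culture, near another member or with a response element; further members were named to complete a role group or by their motif after values were seen.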

Additional observations from a re-analysis of the deposited data

How the results depend on the processing

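The count of 74 members was 40 at 8-fold and 24 on type A alone. Under the 8 settings that each left out 1 other library it was 74 to 100, with STO day 20 giving the highest, and under the other settings 50 to 97. The median log2 fold of 3.12 was 2.74 at 4-fold, 3.80 at 8-fold and 2.87 with a minimum signal of 250, and 3.04 to 3.15 with a library left out. These shifts follow from the thresholds. Members higher on STO day 20 than day 1 numbered 2, and 1 with a floor of 100 and 5 at 2-fold; members lower numbered 3, and 1 after quantile normalization. Member trend calls were 0, and 1 with day on a linear scale. No member gene was on the X under 4-fold, 8-fold, a minimum of 250 or with the left-out genes kept. Chosen after seeing the data, the same settings gave 56.3% to 69.4% of member promoters with a MYB motif and 22.6% to 37.5% with an X-box core. No paired analysis was possible because each population has 1 array per type. A cell preparation, its culture and its array cannot be told apart here, and signals near the floor of 50 have no order.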
